A study of Mus musculus with 12 samples.

Results

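CD8Dual mice were compared with B6 (C57BL/6) mice over helper and cytotoxic lymph node T cells together. All 12 RNA-seq samples of the series entered the comparison: 3 of B6 CD4+ T cells, 3 of B6 CD8+ T cells, 3 of CD8.1 T cells and 3 of CD8.2 T cells. In CD8Dual mice the *Cd4* locus was altered to encode the CD8α.1 and CD8β chains in place of CD4, while the *Cd8* locus was intact and encodes CD8α.2, so that every T cell of these mice recognizes MHC-I. CD8.1 T cells use the *Cd4*-encoded co-receptor and were set against B6 CD4+ T cells (the helper lineage), and CD8.2 T cells were set against B6 CD8+ T cells (the cytotoxic lineage). The strain effect of a gene was the mean of these 2 log2 differences. A gene was called where the adjusted P of that mean was under 0.05 and the difference had the same direction in both lineages. All mice were male and 6 to 10 weeks old, and none was treated. The samples were pooled cells sorted as CD62L+ TCRβ+, with a CD44− gate given in the study's methods and not in the labels. The labels do not tie a sample to a single animal, so P values measure the spread between samples. B6 mice came from a supplier and CD8Dual mice from the investigators' colony, so the altered locus cannot be told apart from other differences between these sources of mice. The labels number all B6 libraries before all CD8Dual libraries, so an effect of library order cannot be told apart from strain either. Whole transcripts were copied from total RNA by a kit for small inputs.

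A co-receptor binds the MHC molecule that the T cell receptor (TCR) is reading and brings the kinase Lck to the TCR complex. CD4 binds MHC-II and CD8 binds MHC-I, and the co-receptor genes are switched on in different lineages, *Cd4* in helper and *Cd8a* with *Cd8b1* in cytotoxic T cells. Naive T cells in lymph nodes are quiescent cells that live on TCR contacts with self-MHC and on cytokines such as IL-7, and low interferon tone keeps a set of antiviral genes expressed in them.

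The 12 libraries held 18667474 to 37110502 counts over 49585 genes, and 13118 genes passed the filter on low counts. Levels are given as CPM (counts scaled to a common library size after TMM normalization), and 3 counts corresponded to 0.0875 to 0.167 CPM. Counting floors and intervals cover counting error only. The 10 genes that define T cells, such as those of CD3 and the TCR constant regions, summed to between 6450 and 7694 CPM in every sample, and 1 of them (*Cd247*) was called. *Cd4* had a log2 difference of −4.28 in the helper lineage and of 2.65 in the cytotoxic lineage, and was therefore not called. *Cd8b1* had log2 differences of 2.54 and −0.16, of which the latter did not pass the test (edgeR adjusted P = 0.367), and was not called either. *Cd8a* was called, but its log2 difference was 7.35 in the helper lineage and 0.04 in the cytotoxic lineage. Reads from the altered *Cd4* locus and from the *Cd8* locus are counted under the same *Cd8a* and *Cd8b1* entries. Without CD8.1 replicate 1 and CD8.2 replicate 3, samples doubted after the data were seen, 2486 genes met the rule of the strain effect in place of the 2587 given below.

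The strain effect was broad and small. Of 13118 genes, the quasi-likelihood test of edgeR called 2587 (19.7%) after Benjamini-Hochberg adjustment, 1269 higher (9.67%) and 1318 lower (10%) in CD8Dual mice. The shares of 9.67% and 10% are the background for the counts in gene lists below. The median fold change of the called genes was 1.28, 1934 of them (74.8%) changed by less than 1.5-fold, and 251 (1.91% of tested genes) by more than 2-fold. Among the 5076 well-expressed genes, with a mean of at least 30 CPM, 1310 (25.8%) were called and 1211 (23.9%) were called with a change of less than 1.5-fold. In 1244 called genes the CD8Dual samples lay wholly above or wholly below the B6 samples in each lineage. Among all tested genes, 670 (5.11%) were higher without overlap in both lineages and 663 (5.05%) were lower. Adding an unadjusted P under 0.05 in each lineage as a condition left 1248 genes (9.51%). The study's own limit for differential expression, more than 5-fold with an unadjusted P under 0.05, left 26 genes (0.198%).

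Each lineage alone gave fewer calls than the average over both. At an adjusted P under 0.05, 1674 genes (12.8%) differed in the helper and 1042 (7.94%) in the cytotoxic lineage. The effect itself differed in size between the lineages in 33 of the 2587 called genes (1.28%), by the interaction term at an adjusted P under 0.05, against 245 of all tested genes (1.87%). Genes with opposite directions, such as *Cd4*, cannot be among the called ones, and without CD8.1 replicate 1 the interaction passed in 1378 genes. Where numbers on samples of a strain are treated as pairs and the lineages of a number are averaged first, so that 3 values stand against 3, 1726 genes were called, of which 787 were higher and 939 lower, and 867 were well expressed. Among the genes named here, *Cd247*, *Ift172*, *Sufu*, *Rsad2*, *Xbp1*, *Manf*, *Eef1a1*, *Socs3*, *Tyk2*, *Nck1*, *Egr2*, *Fosl2*, *Traf1*, *Blk*, *Pecam1*, *Itga4*, *Uty*, *Gpr162* and *4930417O13Rik* were not called in that fit.

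**Figure D1:**
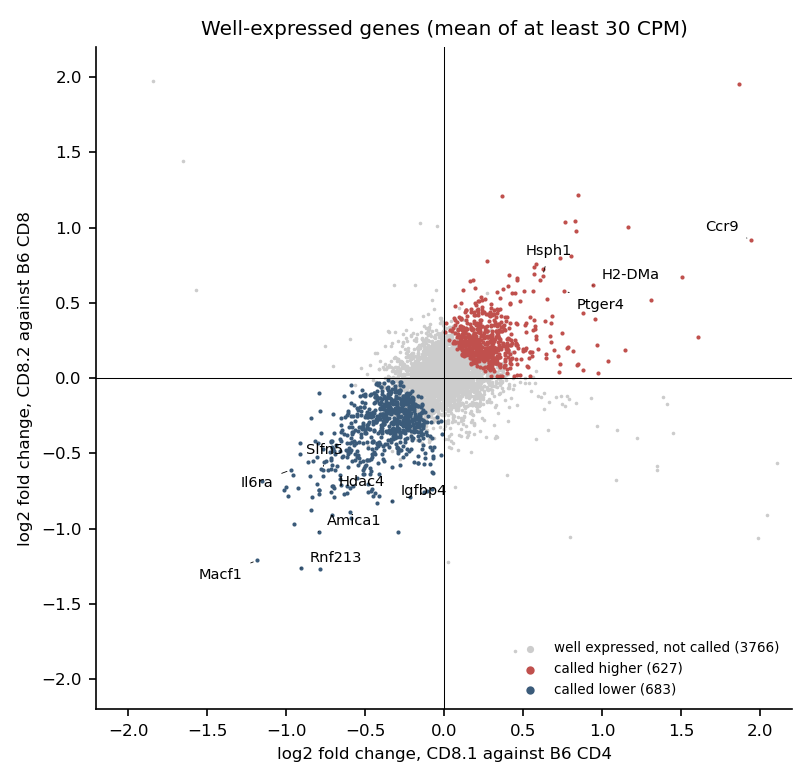
Log2 fold change of each well-expressed gene in the cytotoxic lineage (vertical axis) against that in the helper lineage (horizontal axis). Called genes are coloured by direction (627 higher, 683 lower), 12 of 5076 genes lie outside the axes, and most called genes lie close to the origin. Since both axes hold the same genes and the call requires equal signs, coloured points fall in 2 quadrants by construction.

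Several of the largest and most even changes among well-expressed genes were decreases. *Rnf213* encodes a very large E3 ubiquitin ligase with a role in lipid droplets and antimicrobial defence. It was at 213, 195 and 185 CPM in B6 CD4+, 95.9, 99.7 and 120.4 CPM in CD8.1, 279.5, 307 and 343 CPM in B6 CD8+ and 134, 135 and 118 CPM in CD8.2 T cells. No CD8Dual sample reached the lowest B6 sample of its lineage, and the log2 fold change over both lineages was −1.08 (standard error 0.0712, edgeR adjusted P = 3.56e-07), the smallest P among well-expressed genes that fell without overlap.

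*Il6ra*, the ligand-binding chain of the IL-6 receptor, was at 329, 309 and 244 CPM in B6 CD4+ and 143, 144 and 163 CPM in CD8.1 T cells. In the cytotoxic lineage it was at 210.0, 206 and 171 CPM in B6 CD8+ and 135, 113 and 137 CPM in CD8.2 T cells. It fell in both lineages without overlap, by 0.79 on the log2 scale (standard error 0.0816, edgeR adjusted P = 3.26e-05). *Igfbp4*, which encodes a secreted binding protein of insulin-like growth factors and is abundant in naive T cells, was at 1351, 1309 and 1304 CPM in B6 CD4+, 946, 1057 and 1148 CPM in CD8.1, 568, 521 and 452 CPM in B6 CD8+ and 281, 286 and 306 CPM in CD8.2 T cells. Its decrease had a log2 value of −0.33 in the helper and −0.82 in the cytotoxic lineage.

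Regulators of chromatin and transcription were among the 12 well-expressed genes with the smallest P for a decrease. *Dnmt3a*, a de novo DNA methyltransferase, was at 51.4, 47.1 and 47.8 CPM in B6 CD4+, 25.6, 34.9 and 35 CPM in CD8.1, 46.7, 46.7 and 53.2 CPM in B6 CD8+ and 28.4, 29.5 and 28.2 CPM in CD8.2 T cells. The groups did not overlap in either lineage (log2 fold change −0.69, standard error 0.0761, edgeR adjusted P = 5.95e-05). *Hdac4*, a class IIa histone deacetylase, had a log2 fold change of −0.74 (edgeR adjusted P = 3.2e-05). The other genes of this set were *Padi2*, a peptidylarginine deiminase (−0.60), *Amica1*, the junctional adhesion molecule JAML (−0.91), *Rab11fip4*, an effector of Rab11 in membrane recycling (−0.58), *Clec2d*, a C-type lectin that is a ligand of the receptor Nkrp1d (−0.67), *Ankrd52*, a regulatory subunit of protein phosphatase 6 (−0.74), and *Slfn5* and *Nlrc5*, described below with the interferon-stimulated genes.

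The 12 well-expressed genes with the smallest P for an increase held 3 chaperones or their partners: *Chordc1*, *Dnaja1* and *Cacybp*. *Ccr9*, the receptor that directs T cells to the small intestine, had the largest increase of the 12. It was at 5.73, 7.8 and 13.9 CPM in B6 CD4+ and 29.2, 49.4 and 27.1 CPM in CD8.1 T cells, and at 202, 215 and 193 CPM in B6 CD8+ and 382, 396 and 378 CPM in CD8.2 T cells. All 6 CD8Dual samples were above the B6 samples of their lineage, and the log2 fold change was 1.43 (standard error 0.167, edgeR adjusted P = 9.7e-05). *Ptger4*, which encodes the EP4 receptor of prostaglandin E2, rose from 31.8, 30.8 and 41 to 59.2, 55.2 and 60.9 CPM in the helper and from 19.5, 18.4 and 20.4 to 26.3, 30.7 and 30.2 CPM in the cytotoxic lineage. The others were *Gimap7*, a GTPase of lymphocytes (log2 fold change 0.48), *Serinc3*, a membrane protein that restricts retroviruses (0.46), *Gpr18*, a G protein-coupled receptor of lymphocytes (0.50), *Taf1d*, a subunit of the RNA polymerase I factor SL1 (0.67), *Trbv12-1*, a TCRβ V segment (0.94), and the MHC-II accessory genes *H2-DMa* (0.78) and *H2-Ob* (0.67). B cells express the last pair of genes strongly, and B cell markers moved with them (below), with a part in the result that was not tested. *Gimap7* was the only called gene of the 8 tested *Gimap* genes.

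*Il9r*, *Map2*, *Gm16867* and *Evc* were low-abundance genes with large strain differences. They had been picked as markers of the contrast with earlier results of these data known, so their values are a description. *Il9r* (ENSMUSG00000020279.10, GRCm38 chromosome 11, 32187541 to 32200279, minus strand) encodes the specific chain of the IL-9 receptor. Its counts were 17, 23 and 35 in B6 CD4+, 148, 159 and 82 in CD8.1, 4, 0 and 1 in B6 CD8+ and 23, 17 and 20 in CD8.2 T cells. CD8Dual counts were higher in both lineages without overlap, with a ratio of summed counts of 5.51 (exact 95% interval 4.30 to 7.16) in the helper and 11.5 (4.67 to 36.7) in the cytotoxic lineage after scaling for depth.

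*Map2* (ENSMUSG00000015222.17, chromosome 1, 66175273 to 66442583, plus strand) encodes a microtubule-associated protein best known from neuronal dendrites. It had 11, 11 and 6 counts in B6 CD4+, 37, 44 and 64 in CD8.1, 2, 1 and 5 in B6 CD8+ and 32, 20 and 39 in CD8.2 T cells. The groups were again apart in both lineages, with ratios of 5.51 (3.65 to 8.57) and 10.9 (5.31 to 26.0). Of the 22 tested genes of the microtubule list, 6 (27.3%, the marker *Map2* among them) were called higher and 3 (13.6%) lower. Over all tested genes these shares were 9.67% and 10%. Without B6 CD4+ replicate 1 or 2, B6 CD8+ replicate 1 or 2, CD8.1 replicate 2 or CD8.2 replicate 3, 3 were higher.

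*Gm16867* (ENSMUSG00000093954.8, chromosome 14, 69363504 to 69503362, minus strand) had 0 counts in all 6 B6 samples. It had 9, 21 and 12 counts in CD8.1 and 7, 11 and 17 in CD8.2 T cells. Against a floor of 3 counts in each B6 library it was at least 4.90-fold higher in the helper and at least 3.73-fold higher in the cytotoxic lineage. The gene model overlaps *Entpd4* and *Gm21451* on the other strand and *Gm38378* and *Gm37094* on its own, and counting by strand is not stated, so the source of these reads is uncertain.

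*Evc* (ENSMUSG00000029122.11, chromosome 5, 37289098 to 37336894, minus strand), which encodes a protein of the primary cilium that takes part in Hedgehog signalling, was lower. It had 3, 1 and 9 counts in B6 CD4+, 1, 0 and 0 in CD8.1, 33, 20 and 29 in B6 CD8+ and 0, 1 and 0 in CD8.2 T cells. The cytotoxic groups were far apart, with B6 at 85.5 times the CD8.2 level (exact 95% interval 14.9 to 3416), while a CD8.1 and a B6 CD4+ sample each had a single count and the helper ratio was 12.2 (1.84 to 519.7). *Evc* overlaps *Crmp1* on the other strand. In the wider list of Hedgehog and ciliary genes, 2 of 22 tested genes (9.09%) were called higher and 5 (22.7%) lower, against 9.67% and 10% of all tested genes. The marker *Evc* is itself 1 of the 5. The decreases included *Iqce* (log2 fold change −0.46), a partner of the EVC complex, *Ift172* (−0.34), a subunit of the intraflagellar transport machinery, and *Sufu* (−0.23), the inhibitor of Gli factors. With offsets for GC content and transcript length 2 of the list were called lower, and with the averaged pairs 3. *Ift172* (−0.21) and *Sufu* (−0.11) were not called with the offsets, and *Iqce* was at −0.26.

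**Figure D2:**
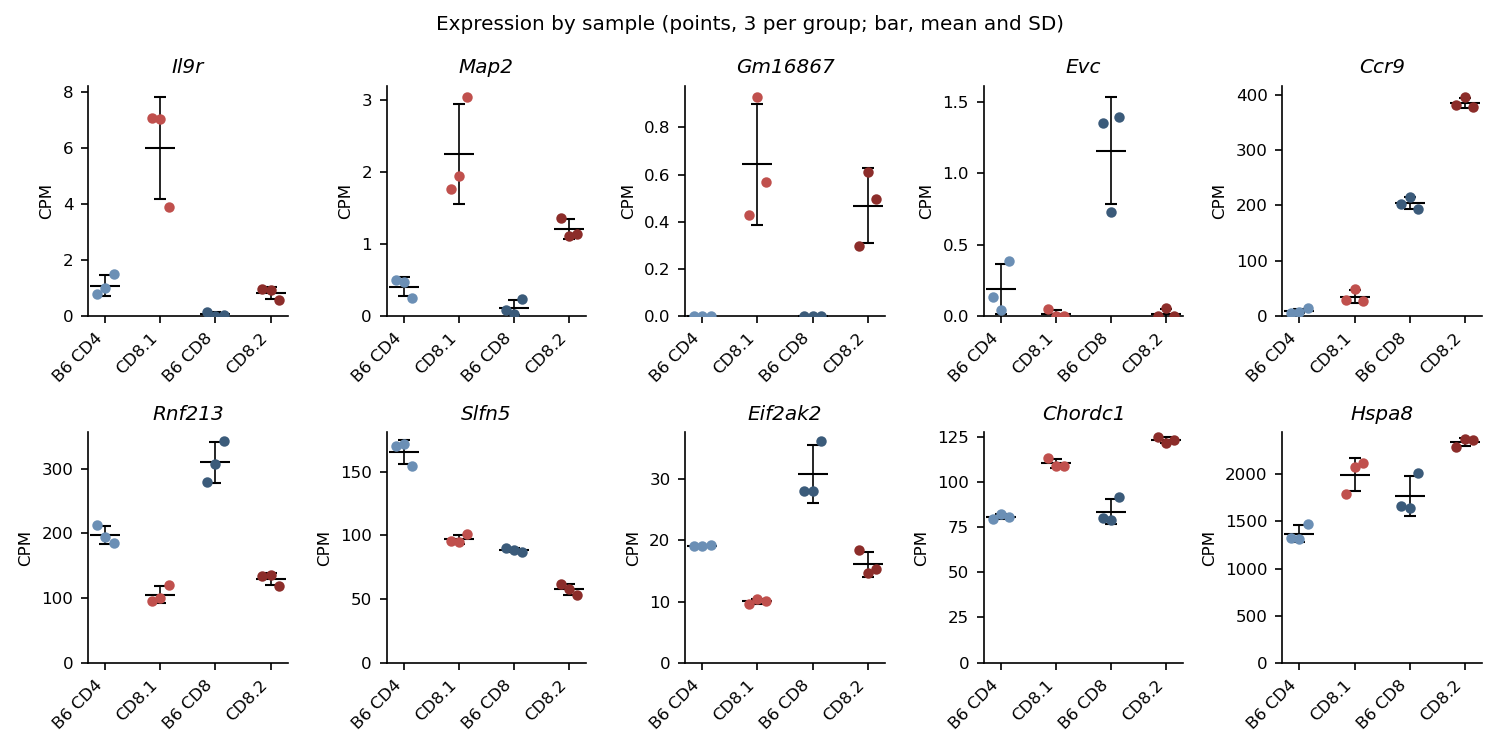
CPM (vertical axis, linear and starting at 0) of 10 genes in the 12 samples. Points are samples, 3 per group, and bars give the mean and SD. In 9 of the 10 genes no CD8Dual sample overlapped the B6 samples of its lineage. Most of these genes were picked by rules that require this, so that count is no result. Among all tested genes, 5.11% were higher and 5.05% lower without overlap in both lineages. In *Evc* a CD8.1 sample at 0.0477 CPM lay just above a B6 CD4+ sample at 0.0431 CPM.

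Other genes with large fold changes were also of low abundance. Among those without overlap and with an unadjusted P under 0.05 in each lineage, the largest increases after *Gm16867* were *Gm4841*, *Ces2c*, a carboxylesterase, *Pdzk1ip1*, a small membrane protein, and the receptors *Il1rl1*, the IL-33 receptor ST2, and *Il1r2*, the decoy receptor of IL-1. *Ces2c*, *Pdzk1ip1*, *Il1rl1* and *Il1r2* had 0 counts in all B6 CD8+ samples and 12, 14, 7 and 10 counts summed over the 3 CD8.2 samples, so that *Ces2c*, *Pdzk1ip1* and *Il1r2* were at least 1.35-, 1.65- and 1.13-fold higher there and *Il1rl1* had no bound. In the helper lineage the summed counts rose from 98 to 766 for *Il1rl1* (ratio 8.31, exact 95% interval 6.73 to 10.4), from 100 to 332 for *Il1r2* (3.53, 2.81 to 4.46) and from 28 to 120 for *Pdzk1ip1* (4.56, 2.999 to 7.14). The call of *Il1r2* was lost without CD8.2 replicate 2 (edgeR adjusted P = 0.0587).

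The largest decreases were those of *Myo18b*, an unconventional myosin (log2 fold change −2.20), *Lrig3*, a leucine-rich repeat membrane protein (−2.13), *Drc1*, a subunit of the dynein regulatory complex of motile cilia (−1.72), *Mrvi1*, a partner of the IP3 receptor (−1.50), the predicted gene *Gm5564* (−1.82) and 3 ribosomal protein pseudogenes. *Drc1* was at 4.32, 4.1 and 3.19 CPM in B6 CD4+, 1.1, 2.12 and 2.23 CPM in CD8.1, 9.33, 7.82 and 10.3 CPM in B6 CD8+ and 1.66, 1.94 and 1.78 CPM in CD8.2 T cells. No samples overlapped within a lineage, and its edgeR adjusted P was 2.06e-05. The pseudogenes *Rpl35a-ps3* (−2.06), *Rpl35a-ps2* (−1.60) and *Rpl10-ps3* (−1.50) share reads with their parent genes, and their values are uncertain.

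Interferon-stimulated genes formed the list with most decreases. These genes are switched on by type I and type II interferons through IRF and other factors and encode antiviral proteins. Of 72 tested members, 29 (40.3%) were called lower and 6 (8.33%) higher, against 10% and 9.67% of all tested genes, and the median log2 fold change was −0.21, against 0.006 over all genes. The list median was −0.24 in the helper and −0.15 in the cytotoxic lineage.

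*Slfn5*, a Schlafen family gene, had the smallest P of the list. It was at 169.7, 171 and 154 CPM in B6 CD4+, 95.4, 94.6 and 101 CPM in CD8.1, 89.8, 88.4 and 86.7 CPM in B6 CD8+ and 61.8, 58.2 and 53.2 CPM in CD8.2 T cells, with no overlap in either lineage (log2 fold change −0.69, standard error 0.0526, edgeR adjusted P = 2.27e-06). *Eif2ak2*, which encodes the double-stranded RNA-activated kinase PKR, was at 19, 19.1 and 19.3 CPM in B6 CD4+, 9.59, 10.5 and 10 CPM in CD8.1, 28.1, 28 and 36.3 CPM in B6 CD8+ and 18.4, 14.6 and 15.3 CPM in CD8.2 T cells. Its log2 fold change was −0.93 in each lineage. *Oas2*, an oligoadenylate synthetase, fell by 1.34 on the log2 scale (standard error 0.165, edgeR adjusted P = 0.000134), and *Nlrc5*, the transactivator of MHC-I genes, by 0.52 (standard error 0.0583, edgeR adjusted P = 7.58e-05). The 29 decreases ran from −1.42 to −0.23 on the log2 scale.

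The increases within the list were those of the interferon-γ-inducible GTPases *Iigp1* (log2 fold change 0.86), *Gbp3* (0.71), *Gbp8* (0.34) and *Irgm2* (0.30), of *Ifit1bl1* (0.36) and of the transcription factor *Irf1* (0.21). *Irgm2* and *Irf1* were named after their values were seen, to give all 6. *Gbp3* was at 8.96, 11.4 and 12.7 CPM in B6 CD4+, 24.3, 21.1 and 21.6 CPM in CD8.1, 18.5, 18.7 and 22.3 CPM in B6 CD8+ and 27.1, 25.9 and 25.4 CPM in CD8.2 T cells. It was higher in every CD8Dual sample, whereas its family neighbour *Gbp7* fell (log2 fold change −0.57).

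The B6 samples themselves differed in these genes. The median over the list, relative to the mean of the B6 samples of the lineage, was −0.056, −0.095 and 0.163 in B6 CD4+ replicates 1 to 3 and −0.092, −0.098 and 0.203 in B6 CD8+ replicates 1 to 3. In CD8.1 replicates 1 to 3 it was −0.217, −0.102 and −0.328, and in CD8.2 replicates −0.149, −0.128 and −0.171. Replicate 3 of both B6 groups was thus the highest, and CD8.1 replicate 2 lay just below the lowest B6 CD4+ sample. Without replicate 3 of both B6 groups, an alternative chosen after the data were seen, 19 members were called lower.

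*Isg15*, a ubiquitin-like modifier, *Ifit1*, which binds foreign RNA caps, and *Rsad2*, the antiviral enzyme viperin, illustrate these B6 differences and were chosen after their values were seen. *Isg15* was at 30.2, 37.8 and 58.2 CPM in B6 CD4+, 26.3, 28.3 and 17.5 CPM in CD8.1, 38.4, 41.6 and 53.3 CPM in B6 CD8+ and 28.4, 37.1 and 27.7 CPM in CD8.2 T cells. *Rsad2* was at 6.46, 6.85 and 13.8 CPM in B6 CD4+ and 7.3, 5.75 and 4.23 CPM in CD8.1 T cells, so that its groups overlapped. Replicate 3 was the highest B6 sample in both lineages for all 3 genes.

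Promoter sequences of called members are shown here because the interferon-stimulated response element (ISRE), a binding site of IRF factors, is what defines many of these genes. The core was searched as GAAANNGAAA, or TTTCNNTTTC on the other strand, in the 250 bases before each RefSeq transcription start (GRCm38.p6). It was found before 978 of all 32851 starts (2.98%). Promoters were listed for 52 of the 72 members, and 29 of their 63 starts (46.0%) held the core. The share was 63.2% (12 of 19 starts) for members called lower, 57.1% (4 of 7) for members called higher and 35.1% (13 of 37) for members not called. The following stretches, 5′ to 3′ on the strand of the gene, carry the first core found in capitals with 20 bases on each side. Further matches, 3 in all for *Isg15* and 2 each for *Ifit1* and *Gbp3*, are not in capitals.
*Slfn5* (lower; chr11:82951927-82951976, plus strand, core from 155 bases before the start): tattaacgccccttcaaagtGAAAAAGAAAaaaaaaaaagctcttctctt
*Gbp7* (lower; chr3:142530263-142530312, plus strand, 53 bases): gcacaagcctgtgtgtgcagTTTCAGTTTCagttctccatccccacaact
*Isg15* (lower; chr4:156200867-156200916, minus strand, 78 bases): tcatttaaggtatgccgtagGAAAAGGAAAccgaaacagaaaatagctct
*Ifit1* (lower; chr19:34640765-34640814, plus strand, 104 bases): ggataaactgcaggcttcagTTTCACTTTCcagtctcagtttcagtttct
*Rsad2* (lower; chr12:26456543-26456592, minus strand, 120 bases): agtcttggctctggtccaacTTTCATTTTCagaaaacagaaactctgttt
*Gbp3* (higher; chr3:142559979-142560028, plus strand, 45 bases): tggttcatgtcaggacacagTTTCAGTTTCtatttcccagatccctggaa
*Irgm2* (higher; chr11:58214893-58214942, plus strand, 64 bases): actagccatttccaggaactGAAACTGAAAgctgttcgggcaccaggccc
The cores in capitals of *Gbp7*, which fell, and of *Gbp3*, which rose, have the same letters. A match is a description of the sequence and not a site of binding.

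Heat shock and chaperone genes were higher in CD8Dual T cells. Chaperones of the HSP70 and HSP90 systems fold new proteins, and their cytosolic members are induced together by the factor HSF1. Of 28 tested members, 10 (35.7%) were called higher and 0 lower, and the median log2 fold change was 0.13 (0.10 in the helper and 0.14 in the cytotoxic lineage). The per-sample list medians did not overlap, with 0.117, 0.089 and 0.141 in CD8.1 against at most 0.009 in B6 CD4+ and 0.131, 0.157 and 0.150 in CD8.2 against at most 0.064 in B6 CD8+ T cells.

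*Chordc1*, an HSP90 co-chaperone, had the smallest P of all well-expressed genes that rose without overlap. It was at 79.7, 82.3 and 80.5 CPM in B6 CD4+, 113, 109 and 109 CPM in CD8.1, 79.9, 79 and 91.6 CPM in B6 CD8+ and 124.9, 122 and 123 CPM in CD8.2 T cells (log2 fold change 0.51, standard error 0.0499, edgeR adjusted P = 2.46e-05). The spread within groups was small beside the difference. *Dnaja1*, an HSP40 co-chaperone of HSP70, was at 139.5, 128 and 160.4 CPM in B6 CD4+, 221, 208 and 206 CPM in CD8.1, 162, 153 and 197 CPM in B6 CD8+ and 278, 275 and 275 CPM in CD8.2 T cells.

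*Hspa8*, the constitutive HSP70, was at 1321, 1310 and 1474 CPM in B6 CD4+, 1795, 2076 and 2121 CPM in CD8.1, 1660, 1639 and 2017 CPM in B6 CD8+ and 2294, 2374 and 2368 CPM in CD8.2 T cells. Its increase was 0.47 on the log2 scale (standard error 0.0635, edgeR adjusted P = 0.00024). *Hsph1*, an HSP110 nucleotide exchange factor, rose by 0.65 (standard error 0.0831, edgeR adjusted P = 0.000171). *Chordc1*, *Dnaja1*, *Hsph1* and *Hspa8* each rose without overlap in both lineages. The rise did not extend to every abundant chaperone, as *Hsp90ab1*, the constitutive cytosolic HSP90, named after its value was seen, had a log2 fold change of 0.02 and was not called. In the unfolded protein response of the endoplasmic reticulum, 4 of 24 tested genes were called higher (*Herpud1*, *Dnajb9*, *Xbp1* and *Manf*) and 0 lower, and the list median was −0.01. That count was 2 with the averaged pairs and without any of B6 CD4+ replicates 1 and 2, B6 CD8+ replicates 1 and 2, CD8.1 replicate 2 and CD8.2 replicates 1 and 2. The heat shock element core GAANNTTC was found in 1 of 13 listed starts of the called chaperones, before *Dnaja1*, against 5 of 17 (29.4%) for chaperones not called and 6.69% of all starts.

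Cytosolic ribosomal protein genes were higher by a small amount. These genes encode the subunits of the ribosome, and their TMM-scaled levels summed to between 205058 and 275199 CPM in a sample. Of 82 tested members, 35 (42.7%) were called higher and 0 lower, with a median log2 fold change of 0.14 (0.10 in the helper and 0.18 in the cytotoxic lineage). *Rpl30* was at 1945, 2222 and 1969 CPM in B6 CD4+, 2373, 2671 and 2783 CPM in CD8.1, 2120, 2268 and 2040 CPM in B6 CD8+ and 2388, 2664 and 2638 CPM in CD8.2 T cells. Its groups did not overlap, and the log2 fold change was 0.31 (standard error 0.0572, edgeR adjusted P = 0.00211). *Rps6*, the substrate of S6 kinase, was at 2598, 2900 and 2650 CPM in B6 CD4+ and 2966, 4531 and 4700 CPM in CD8.1 T cells, so that CD8.1 replicate 1 was much nearer to B6 than replicates 2 and 3.

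The ribosomal count depended on how the samples were treated. With the lineages of a replicate number averaged as pairs, 5 of the 82 genes were called. The list median of B6 CD4+ replicate 2 was 0.098, above those of CD8.1 replicates 1 and 2 (0.077 and 0.089), whereas the CD8.2 values (0.104, 0.229 and 0.204) were all above those of B6 CD8+ T cells (at most 0.052). Without replicate 3 of both B6 groups 18 were called, and 15 when an unadjusted P under 0.05 was required in each lineage.

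Translation factors moved in both directions. Of 46 tested, 11 (23.9%) were called higher and 5 (10.9%) lower. *Eef1a1*, the elongation factor that delivers aminoacyl-tRNA, had a log2 fold change of 0.27. The large scaffold proteins of cap-dependent initiation, *Eif4g3* and *Eif4g1*, were at −0.62 and −0.40. Without any of B6 CD4+ replicates 1 and 2, B6 CD8+ replicates 1 and 2, CD8.1 replicate 2 and CD8.2 replicates 2 and 3, 6 or 7 were called higher, and 4 with the averaged pairs. Proteasome subunits gave 0 calls in either direction among 34 tested genes by edgeR, 5 higher and 1 lower at an unadjusted P under 0.05, and 2 higher and 1 lower by DESeq2. Nuclear genes of the respiratory chain gave 5 higher (6.49%) and 3 lower (3.90%) of 77, and glycolysis genes 2 higher (6.90%) and 0 lower of 29. All of these were below the shares of all tested genes (9.67% and 10%). With a single sample left out, the respiratory chain gave from 0 (without B6 CD4+ replicate 1, B6 CD8+ replicate 1, CD8.1 replicate 2 or CD8.2 replicate 2 or 3) to 12 higher (without CD8.1 replicate 1) and from 0 to 6 lower, and glycolysis from 0 to 6 higher (6 without CD8.1 replicate 1). With offsets for GC content and length the respiratory chain gave 2 higher and 9 lower, and glycolysis 7 higher.

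Sterol and fatty acid synthesis genes were called higher in 10 of 36 (27.8%) and lower in 3 (8.33%), with a median of 0.14. *Sqle*, which makes the epoxide of squalene in cholesterol synthesis, was at 15.6, 14.8 and 15 CPM in B6 CD4+, 25.1, 19.2 and 18.9 CPM in CD8.1, 4.67, 5.56 and 4.09 CPM in B6 CD8+ and 8.3, 11.9 and 10.1 CPM in CD8.2 T cells. All CD8Dual samples were higher (log2 fold change 0.77, standard error 0.108, edgeR adjusted P = 0.000333). *Scd1*, a fatty acid desaturase (0.97), and *Fdft1*, squalene synthase (0.32), rose as well. The 3 decreases were those of *Fasn*, fatty acid synthase (−0.37), *Acaca*, acetyl-CoA carboxylase (−0.33), and *Elovl6*, a fatty acid elongase (−0.58), which make and lengthen fatty acids rather than sterols. With offsets for GC content and transcript length *Fasn* (−0.02) and *Acaca* (−0.09) were not called, which left 1 decrease and 13 increases.

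**Figure D3:**
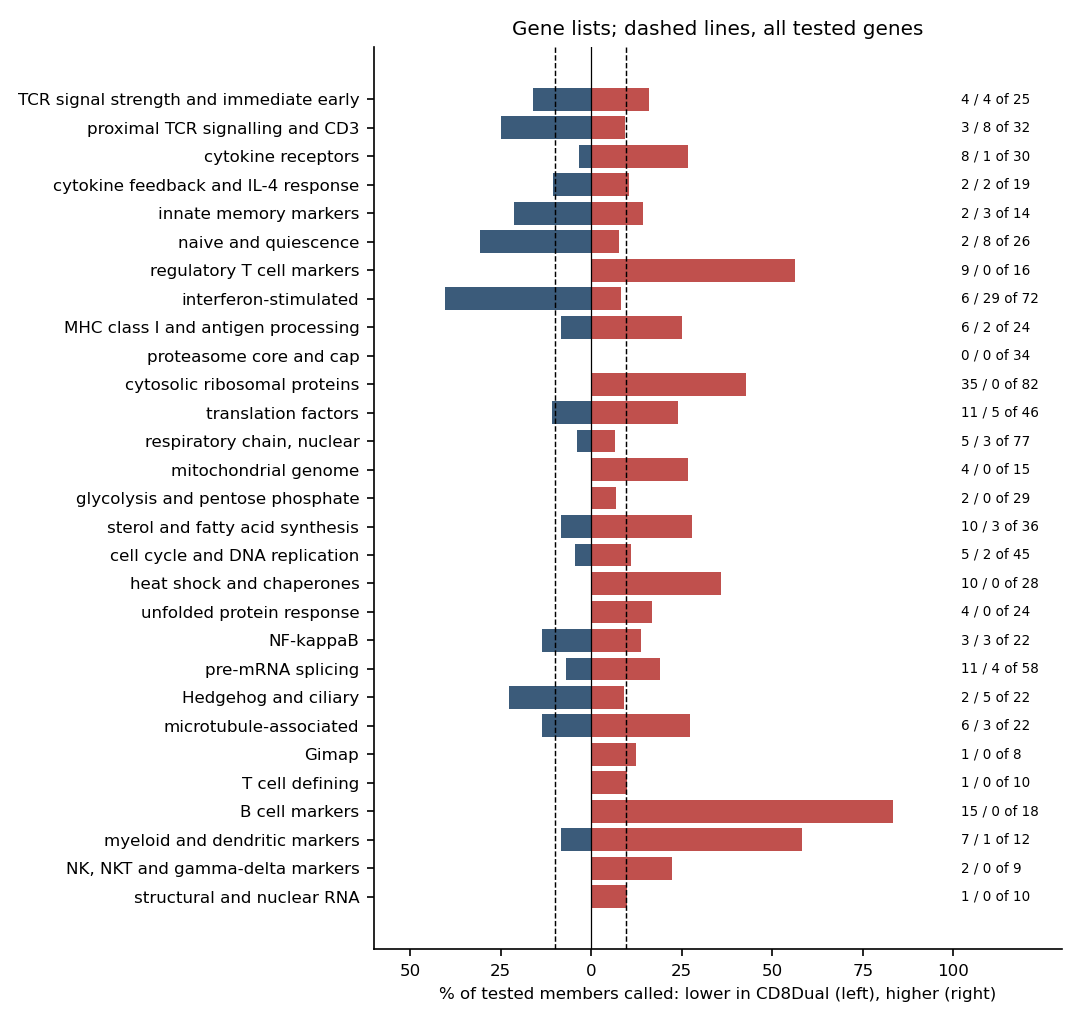
Percentage of the tested members of each list with at least 8 tested genes that was called higher (right, red) or lower (left, blue) in CD8Dual mice. Numbers at the right are higher / lower of tested, and dashed lines mark the shares over all tested genes (9.67% and 10%). Interferon-stimulated genes reach 40.3% on the lower side and ribosomal protein genes 42.7% on the higher side.

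Cytokine receptors were called higher in 8 of 30 tested genes (26.7%) and lower in 1 (3.33%), *Il6ra*. Besides *Il9r* and *Il1rl1*, *Il2ra*, the high-affinity IL-2 receptor chain (log2 fold change 1.09), and *Ifngr1*, the interferon-γ receptor chain (0.34), rose. Without CD8.2 replicate 3, 5 were higher, as with the averaged pairs. The genes of cytokine feedback and IL-4 response were called close to the share of all genes, 2 of 19 (10.5%) in each direction. Those higher were the STAT-induced inhibitors *Socs2* (1.18) and *Socs3* (0.38), and those lower were the survival gene *Bcl2* (−0.61) and the kinase *Tyk2* (−0.16). With a sample left out each count ran from 1 to 4, and with the offsets 5 were higher and 1 lower, *Tyk2* (0.0004) not being called. *Bcl2* was at 114, 111 and 103 CPM in B6 CD4+, 97.7, 66.4 and 74.1 CPM in CD8.1, 163, 167 and 169.6 CPM in B6 CD8+ and 99.4, 101 and 96.4 CPM in CD8.2 T cells, with no overlap.

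Genes of naive state and quiescence were called lower in 8 of 26 (30.8%) and higher in 2 (7.69%), with a median of 0.03. The decreases included *Satb1*, a chromatin organizer (−0.27), *Foxp1*, a factor that holds naive T cells quiescent (−0.38), *Dapl1* (−0.44), and *Tsc1*, the inhibitor of mTORC1 (−0.37). *Klf6*, a zinc finger factor, was higher at 127, 109 and 127 CPM in CD8.1 and 118, 119.7 and 124 CPM in CD8.2 T cells, against 84.5, 92.1 and 69.6 CPM in B6 CD4+ and 79.8, 89.3 and 73.2 CPM in B6 CD8+ T cells. With offsets for GC content and transcript length 4 of the list were called lower and 5 higher, and *Tsc1* (−0.16) was not called. Proximal TCR signalling genes were called lower in 8 of 32 (25%) and higher in 3 (9.38%). *Ptprc*, the phosphatase CD45 (−0.36), *Rasgrp1*, which activates Ras (−0.29), *Pag1*, the adaptor that holds Csk (−0.31), and *Dgka*, a diacylglycerol kinase (−0.24), fell, and *Cd28*, the co-stimulatory receptor (0.56), *Nck1* (0.26) and *Cd247* (0.22) rose. With the offsets *Pag1* (−0.13, edgeR adjusted P = 0.064) and *Cd247* (0.17, edgeR adjusted P = 0.149) were not called. The count of decreases was 5 without any of B6 CD4+ replicates 1 and 2, B6 CD8+ replicate 1 and CD8.2 replicate 2.

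Genes that follow TCR signal strength were split evenly, with 4 of 25 (16%) higher and 4 (16%) lower. *Irf4*, *Dusp1*, *Junb* and *Egr2*, which are early targets of TCR signals, were higher (log2 fold changes 0.68, 0.76, 0.41 and 0.42), while *Fos* (−0.90), *Fosl2* (−0.33) and the inhibitory receptors *Cd5* (−0.23) and *Cd6* (−0.35) were lower. *Fos* was at 8.28, 7.59 and 9.53 CPM in B6 CD4+, 4.2, 3.89 and 3.7 CPM in CD8.1, 3.89, 5.05 and 4.43 CPM in B6 CD8+ and 3.49, 3.06 and 1.87 CPM in CD8.2 T cells. Its groups did not overlap in either lineage. With the offsets *Fosl2* was at −0.14 and not called. Without CD8.2 replicate 2, 2 genes of the list were called lower. Of NF-κB genes, 3 of 22 (13.6%) were called in each direction, near the shares of all genes (9.67% and 10%): *Nfkbia*, the inhibitor IκBα (0.30), *Rel* (0.26) and *Traf1* (0.24) were higher, and *Traf3* (−0.45), *Ikbkb* (−0.55) and *Map3k14* (−0.30) were lower. Between 1 (without B6 CD4+ replicate 3, B6 CD8+ replicate 1, CD8.1 replicate 3 or CD8.2 replicate 2 or 3) and 5 (without CD8.1 replicate 1 or 2) were higher with a sample left out. With the offsets 6 were higher, *Map3k14* (−0.16) was not called and *Traf3* was at −0.25.

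MHC-I and antigen processing genes were called higher in 6 of 24 (25%) and lower in 2 (8.33%). *B2m* (log2 fold change 0.28), *H2-K1* (0.24) and *H2-Q7* (0.41), which encode the light chain and heavy chains of MHC-I, rose without overlap in both lineages, whereas their transactivator *Nlrc5* fell. With offsets for GC content and length *B2m* was at 0.23 and not called (edgeR adjusted P = 0.0695). The classical and non-classical H2 genes are close paralogs among which reads can be split. Without CD8.2 replicate 2, and with the averaged pairs, 3 were higher. Splicing factors were called higher in 11 of 58 (19.0%) and lower in 4 (6.90%). Among the former were *Srsf1* (0.39), *Srsf10* (0.37) and *Rbm39* (0.38), and among the latter *Hnrnpd* (−0.34) and *Hnrnpl* (−0.19). Between 6 (without B6 CD8+ replicate 1 or CD8.2 replicate 3) and 15 (without CD8.1 replicate 1) were higher with a single sample left out. Cell cycle and DNA replication genes were higher in 5 of 45 (11.1%) and lower in 2 (4.44%). Among all tested genes these shares were 9.67% and 10%. With B6 CD8+ replicate 3 left out, 22 were higher.

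**Figure D4:**
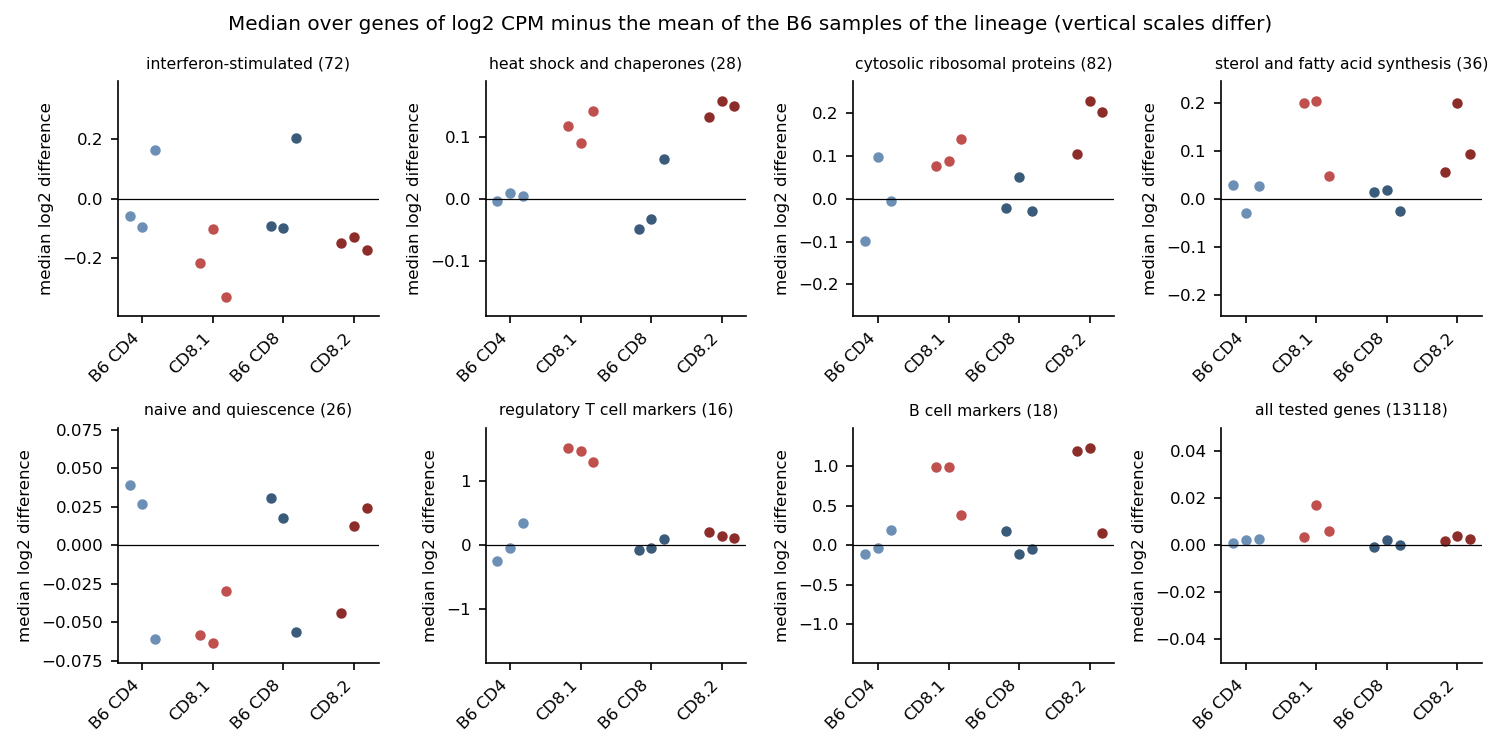
For each sample (points, 3 per group), the median over the members of a list of log2 CPM minus the mean of the B6 samples of the same lineage (vertical axis, whose scale differs between panels). Heat shock and chaperone genes are apart in both lineages, interferon-stimulated genes have a high replicate 3 in both B6 groups, and all tested genes together stay within 0.02 of 0.

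The direction of the strain effect went with transcript length. Genes were divided into 5 groups of about equal number by the length of their longest annotated transcript. In the shortest group (up to 1380 bases), 3.78% of 2619 genes were called lower and 9.81% higher. In the longest group (4888 bases and more), 24.02% of 2619 genes were called lower and 6.38% higher, and the median log2 fold change was −0.10 (−0.10 in the helper and −0.09 in the cytotoxic lineage). Of the named decreases among well-expressed genes, *Rnf213* has a transcript of 16716 bases, *Dnmt3a* of 9685, *Il6ra* of 8639 and *Hdac4* of 8100. *Macf1*, which crosslinks actin and microtubules and was chosen after its values were seen for its transcript of 23495 bases, was at 225, 181 and 119.9 CPM in B6 CD4+, 69.4, 65 and 97 CPM in CD8.1, 186, 180.0 and 139 CPM in B6 CD8+ and 83.2, 63.1 and 71.5 CPM in CD8.2 T cells. The groups did not overlap, although B6 CD4+ replicate 3 was far below replicate 1.

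The longest group was lower in all 6 CD8Dual samples, with medians from −0.14 to −0.07 relative to B6, but B6 CD4+ replicate 3 (−0.08) lay within that range. With per-sample offsets for GC content and length, which remove such a trend whatever its source, 2750 genes were called, 1592 higher and 1158 lower. The log2 fold change of *Rnf213* was then −0.69 (edgeR adjusted P = 4.03e-05), that of *Macf1* −0.75, that of *Nlrc5* −0.30 and that of *Slfn5* −0.64. In that fit, 35 interferon-stimulated genes were lower, 27 ribosomal protein genes higher and 1 lower, and 9 chaperone genes higher and 1 lower. Ribosomal protein genes are short (median transcript 1077 bases), and their median log2 fold change was 0.10 with the offsets. The study's methods state that only RNA with an integrity number above 9 was used. Values per sample were not given, and the part of RNA integrity in the length trend was not tested.

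**Figure D5:**
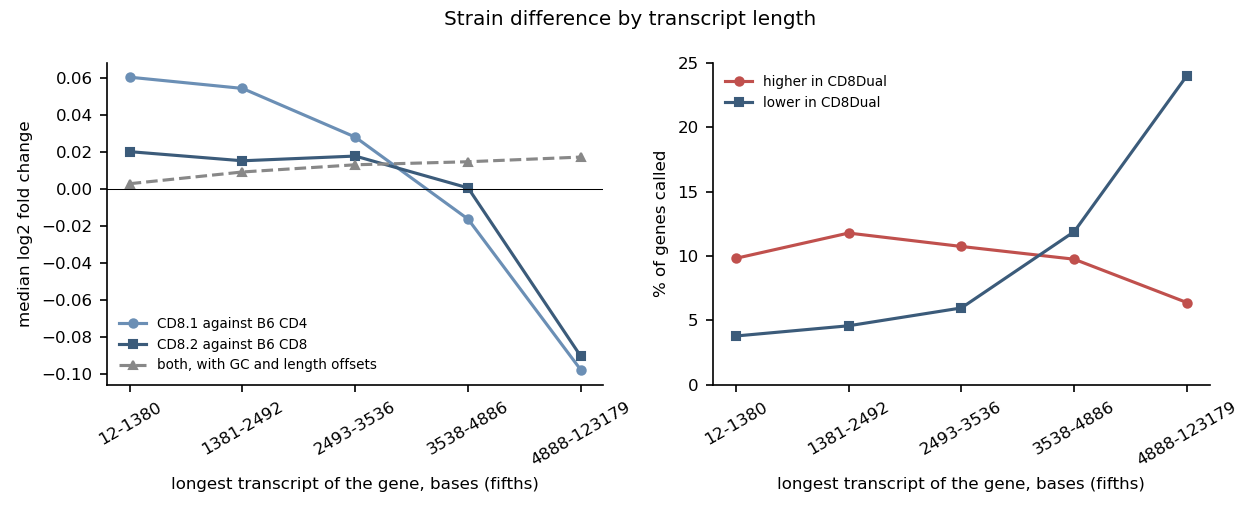
Left, median log2 fold change of genes in 5 groups by transcript length (horizontal axis, bases) in each lineage, and over both lineages with GC content and length offsets (dashed). Right, percentage of genes called higher or lower in CD8Dual mice, which for lower rises from 3.78% to 24.02% across the groups.

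Markers of other cell types and of regulatory T cells moved with strain. Of 18 B cell markers, 15 were called higher and 0 lower (median log2 fold change 0.90), and none was at 0 in any group. Their summed level was 899 to 995 CPM in B6 CD4+, 1205 to 1632 CPM in CD8.1, 837 to 898 CPM in B6 CD8+ and 846 to 1226 CPM in CD8.2 T cells, and CD8.2 replicate 3, the lowest of its group, lay within the range of B6 CD8+ T cells. *Igkc*, the κ light chain constant region, was at 34.7, 42.2 and 50.8 CPM in B6 CD4+, 89.4, 121 and 76.1 CPM in CD8.1, 22.6, 21.9 and 18.5 CPM in B6 CD8+ and 49.8, 52.7 and 25.2 CPM in CD8.2 T cells. Of 12 tested myeloid and dendritic cell markers, with *Ccr9* among them, 7 were higher and 1 lower, and without B6 CD8+ replicate 1, 4 were higher. The 16 markers of that list had 17 entries among the counted genes, of which 1 or 2 were at 0 in each group. *Lyz2*, lysozyme of macrophages, was at most 5.06 CPM in B6 and at least 6.5 CPM in CD8Dual samples. In samples of many cells, more cells of a type and more RNA per cell cannot be told apart.

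Regulatory T cell markers were called higher in 9 of 16 (56.25%) and lower in 0, against 9.67% and 10% of all tested genes. The list median was 1.46 in the helper but 0.21 in the cytotoxic lineage. With an unadjusted P under 0.05 required in each lineage as well, 3 were called higher. *Foxp3*, their defining transcription factor, was at 32.6, 37.8 and 44.6 CPM in B6 CD4+ and 102, 149 and 168 CPM in CD8.1 T cells, and at 0.287, 0.182 and 0.529 CPM in B6 CD8+ and 0.809, 1.44 and 1.46 CPM in CD8.2 T cells. *Ctla4*, an inhibitory receptor of these cells, had a log2 fold change of 1.60. The summed level of the list was 492 to 659 CPM in B6 CD4+ and 1086 to 1259 CPM in CD8.1 T cells, but 388 to 418 CPM in B6 CD8+ and 245 to 260 CPM in CD8.2 T cells, so that the sum went the opposite way in the cytotoxic lineage. *Il1rl1*, *Il1r2* and *Il9r* rose in the helper lineage together with these markers, and the part of regulatory T cells in those values was not tested.

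Of 9 tested markers of NK, NKT and γδ T cells, 2 were higher, with *Blk* (0.62) among them, and 0 with the averaged pairs or without any of B6 CD4+ replicates 1 and 3, B6 CD8+ replicates 2 and 3, CD8.1 replicate 2 and CD8.2 replicate 1. Their median was 1.30 in the helper and −0.71 in the cytotoxic lineage. Erythroid markers gave 0 of 4 in either direction by edgeR and by DESeq2 (0 at an unadjusted P under 0.05), stromal and endothelial markers 1 lower of 2 (*Pecam1*, which T cells express), and structural and nuclear RNA 1 higher of 10 (*Gas5*). The structural RNAs summed to 1308 to 2619 CPM in CD8.1 and to 42454 CPM in CD8.2 replicate 3, against 4582 to 14481 CPM in B6 samples. Transcripts of the mitochondrial genome were higher in 4 of 15, and in 9 without CD8.2 replicate 1, with a median of 0.52 in the helper and −0.03 in the cytotoxic lineage. Innate memory markers were higher in 2 of 14 (14.3%, *Ifngr1* and *Cd44*) and lower in 3 (21.4%, *Klrd1*, *Tbx21* and *Itga4*). Among all tested genes these shares were 9.67% and 10%. *Itga4* was not called with the offsets. The list median was 0.62 in the helper and −0.39 in the cytotoxic lineage. The CD8.1 samples (0.436, 0.701 and 0.594) were all above, and the CD8.2 samples (−0.463, −0.360 and −0.370) all below, the B6 samples of their lineage. The Y-linked *Uty* was called higher (log2 fold change 0.23), and the other 3 tested sex-linked genes were not called.

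Genes close to the altered *Cd4* locus were called about as often as others. Within 10 Mb of *Cd4* on chromosome 6, 29 of 162 tested genes (17.9%) were called, 15 higher and 14 lower, against 19.7% of all genes. Within 1 Mb, 7 of 37 (18.9%) were called. These were *Lag3*, the MHC-II-binding inhibitory receptor next to *Cd4* (log2 fold change 0.82), *Ptms*, a small acidic nuclear protein (0.81), *Gpr162* (1.93), *Cd9*, a tetraspanin (0.27), *4930417O13Rik* (0.43), *Chd4*, the remodelling ATPase of the NuRD complex (−0.36, but −0.17 and not called with the offsets), and *Vamp1*, a SNARE protein (−0.65). *Ptms* was at 33.4, 36.6 and 41.8 CPM in B6 CD4+, 45.8, 78.3 and 70.4 CPM in CD8.1, 5.98, 8 and 6.59 CPM in B6 CD8+ and 12.5, 14 and 10.1 CPM in CD8.2 T cells, higher in CD8Dual samples without overlap. *Lag3* overlapped in the helper lineage. Farther away, but within 10 Mb, *Clec2d* (−0.67), *Klrd1* (−0.53), *Clec7a* (2.90) and *Klra3* (1.81) belong to the natural killer gene complex. *Klra3*, at a mean of 1.80 CPM, had log2 differences of 3.51 in the helper and 0.11 in the cytotoxic lineage. *Clec7a* and *Gpr162* each had a mean of 0.31 CPM, not far above the counting floor, and their fold changes are uncertain. On the whole of chromosome 6, 129 of 714 tested genes (18.1%) were called, and the share of the other autosomes and the X chromosome ran from 16.4% to 23.3%.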

How the data were processed

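RNA from sorted lymph node T cells of 4 groups with 3 samples each was sequenced. The authors deposited raw counts per gene from STAR on mm10 (RSEM and limma are named in the processing notes). Strand use and the annotation release are not given in the sources used here. Counts were tested with edgeR 4.0.16 (TMM, filterByExpr, glmQLFit), with 1 coefficient per group and all samples sharing the estimate of spread. P values were adjusted over all 13118 tested genes by Benjamini-Hochberg.

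Members and lists were chosen with earlier results of these data known. Named genes were the 4 markers, *Cd4*, *Cd8a* and *Cd8b1*, the 8 called genes per direction with the largest fold change and the 12 well-expressed ones with the smallest P (samples not overlapping in either lineage), up to 4 called members per list and direction, and called genes within 10 Mb of *Cd4*. *Macf1*, *Isg15*, *Ifit1*, *Rsad2*, *Gbp7*, *Irgm2*, *Irf1* and *Hsp90ab1* were added after their values were seen.

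Totals of 18667474 to 37110502 counts gave a floor of 0.0875 to 0.167 CPM. Ratios of low counts have exact 95% intervals. Tested on simulated data for the strain effect over 13118 genes, the model recovered 42% of 50 genes changed 1.25-fold and 82% of 50 changed 1.5-fold. Of the 171 genes called there, 10 (5.85%) were false. The simulated samples were independent and had no length trend, so these shares may not hold for the real samples. Positions and transcript lengths came from a GRCm38 annotation and promoters from RefSeq GRCm38.p6. Deviations of same-numbered samples correlated between the lineages at 0.126, 0.138 and 0.257 in B6 and at −0.004, 0.091 and 0.119 in CD8Dual mice. Differently numbered samples reached at most 0.0999 in B6 and 0.032 in CD8Dual mice. Same-numbered samples thus correlated best for every B6 replicate, but in CD8Dual mice only for replicates 2 and 3. Alternatives were DESeq2 1.42.0 (size factors or Wald test), other filters, GC content and length offsets, an additive model, replicate blocks (limma 3.58.1 for the random block), other call limits and each sample left out. Some list members are not reported here.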

Additional observations from a re-analysis of the deposited data

Results flagged for a closer look

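The strain effect of 8 named genes differed between the lineages by the interaction term of edgeR at an adjusted P under 0.05. The co-receptor genes, altered by design, were 3 of them, with differences of 7.31 for *Cd8a*, −6.93 for *Cd4* and 2.70 for *Cd8b1* on the log2 scale. *Trbv12-1*, a TCRβ V segment, rose by 1.61 on the log2 scale in the helper and had a value of 0.27 in the cytotoxic lineage, a difference of 1.336 (edgeR adjusted P = 0.000978). *Cd44*, the adhesion receptor of activated and memory T cells, had values of 1.04 and 0.11, a difference of 0.9246 (edgeR adjusted P = 0.00601). *Nrp1*, a marker of thymus-derived regulatory T cells, had values of 1.95 and 0.45, a difference of 1.507 (edgeR adjusted P = 0.0110). The difference had the other sign for *Iigp1*, an interferon-γ-inducible GTPase, at −1.117 (0.30 and 1.41, edgeR adjusted P = 0.00637), and for *Lag3*, the neighbour of *Cd4*, at −1.241 (0.20 and 1.44, edgeR adjusted P = 0.0131). *Trbv12-1* was past the threshold under 23 of 23 alternatives, *Cd44* and *Iigp1* under 24 of 24, *Lag3* under 23 of 24 and *Nrp1* under 22 of 24. Groups of 3 samples are too small for a test of single outlying samples.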

How the results depend on the processing

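The 44 genes named as markers or co-receptors, for fold size or for a small P kept their direction under the 28 or 29 alternatives that gave each a value, and 59 of 1263 values lost their call, 3 of them outside the stricter call limits. Most of these genes were chosen from these data for samples without overlap, and the stricter call limits reuse the main values. Their kept direction therefore followed largely from the choice and is no separate evidence. Of 2587 called genes, 1269 higher and 1318 lower, a 2-fold limit left 251 (184 and 67), the 5-fold limit of the study 26 (20 and 6) and a P under 0.05 in each lineage 1248 (563 and 685). These limits left 9, 1 and 667 of the 1310 well-expressed genes and 0, 0 and 576 of those with a small change. For ribosomal protein genes they left 0, 0 and 15, for chaperones and sterol genes 0 under both fold limits, and for interferon-stimulated decreases 3 and 0.

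The replicate block averaged within each strain gave 787 higher, 867 well-expressed, 771 with a small change and 5 ribosomal genes. The other blocks kept each of these counts within 1.5 times. Without a filter on low counts, 1593 genes differed in the cytotoxic lineage and 620 between the lineages, and DESeq2's Wald test gave 410 with either filtering in place of 245. Without replicate 3 of both B6 groups, 18 ribosomal and 19 interferon-stimulated genes were called. Without CD8.1 replicate 1 and CD8.2 replicate 3, 2621 genes differed in the helper lineage and 813 between the lineages.

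With a single sample left out, called genes ran from 1813 (without CD8.2 replicate 3) to 3149 (without CD8.1 replicate 1), higher genes from 804 (without B6 CD8+ replicate 2) to 1608, well-expressed genes from 891 to 1627 and those with a small change from 796 (without CD8.2 replicate 3) to 1548. Helper calls ran from 769 (without B6 CD4+ replicate 1) to 2975, cytotoxic calls from 437 (without B6 CD8+ replicate 2) to 1932, and interaction calls from 167 (without CD8.2 replicate 3) to 1378, the upper values all without CD8.1 replicate 1. Ribosomal calls ran from 24 to 40, chaperones from 7 to 13, interferon-stimulated decreases from 23 to 33 and sterol genes from 8 to 13. The cause of these shifts was not tested. Depth limits genes near the floor, such as *Evc*.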
